A study of Mus musculus with 16 samples.

Results

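The vascular endothelium of the left ventricle was followed through 32 genes whose transcripts mark endothelial cells. They were chosen by name, as well-known genes of vascular endothelium, with earlier results of these data known. All 32 were found among the 53764 genes of the count table and among the 15841 genes that passed a filter on low counts. The mice were male C57BL/6J animals that entered the study at 8 weeks of age and ate their diet freely for 4 months. The study set 4 groups of 4 libraries side by side: a high-fat, high-sucrose diet with ertugliflozin (HFHS ertugliflozin), the same diet alone (HFHS untreated), a low-fat control diet with ertugliflozin (CD ertugliflozin) and that diet alone (CD untreated). Ertugliflozin, an inhibitor of the kidney glucose transporter SGLT2, was mixed into the food at 0.5 mg per g. The 4 animals of each group were picked as representative from 12, per the series description.

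Endothelial cells line the capillaries, arteries, veins and chambers of the heart and carry oxygen, glucose and fatty acids across to the cardiomyocytes. Their identity is held by ETS and SOX transcription factors. Vascular endothelial growth factor acts on them through the receptor Kdr, and angiopoietins act through Tek, whose relative Tie1 and phosphatase Ptprb tune the signal. Cadherin and claudin junctions seal the cell sheet. RNA of whole ground tissue was measured, so fewer endothelial cells and less RNA per endothelial cell cannot be told apart.

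Library totals were 14637669 to 21452212 counts, and the 32 genes together took 51556 to 73995 of them per library. Counts per gene were 101 to 10099 in a library. Marker genes of cardiomyocytes were high in all libraries. The 11 cardiomyocyte markers summed to 102961 to 111596 CPM in HFHS ertugliflozin, 97366 to 116624 in HFHS untreated, 107067 to 120745 in CD ertugliflozin and 107664 to 120980 in CD untreated. CPM values divide each count by the TMM-adjusted size of its library. Summed CPM of the 32 endothelial genes were 3462 to 3857 in HFHS ertugliflozin, 3472 to 4198 in HFHS untreated, 3337 to 3660 in CD ertugliflozin and 3229 to 3624 in CD untreated.

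Per kilobase of exon, the water channel Aqp1 had the highest level, 145.6 CPM per kb as the mean of 16 libraries. The junction cadherin Cdh5 followed at 75.2, the endoglin receptor Eng at 62.4, Kdr at 45.1 and the adhesion molecule Pecam1 at 40.5 CPM per kb. The lowest were the transcription factors Tal1 at 1.95 and Sox17 at 3.42, and the diaphragm protein Plvap at 4.76 CPM per kb. Library ranges of Eng and Kdr (52.8 to 72.5 and 34.1 to 57.0 CPM per kb) overlapped, as did those of Kdr and Pecam1 (34.2 to 46.1). Of Aqp1 and Cdh5, the lowest Aqp1 library (98.4) lay above the highest Cdh5 library (90.1).

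**Figure D1:**
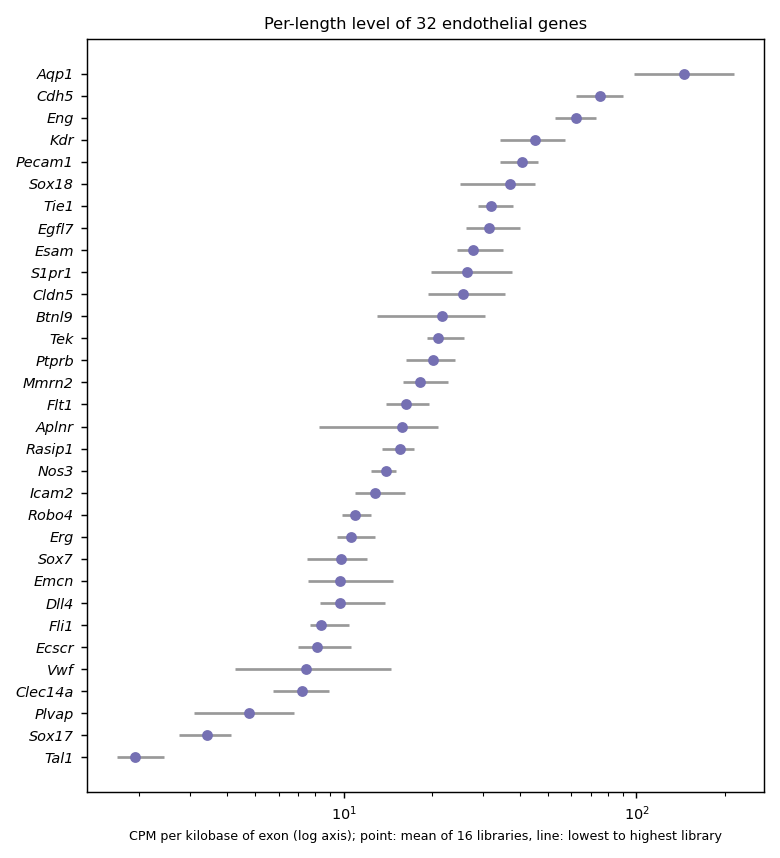
Per-length level of each gene in CPM per kilobase of exon on a log axis, with the mean of 16 libraries as a point and the lowest to highest library as a line. Aqp1 stood highest at 145.6 and Tal1 lowest at 1.95, and most neighbouring lines overlapped.

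Spread between animals also differed among the genes. The pooled standard deviation within groups was 0.08 on the log2 scale for Tie1 and Erg (0.085), 0.09 for Tek, and 0.45 for Vwf, the clotting factor stored in endothelial granules. Plvap (0.31), Aplnr (0.30), S1pr1 (0.26), Aqp1 (0.25) and Cldn5 (0.25) were variable too. Replicates of these genes thus lay farther apart on the log2 scale.

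The promoters of Btnl9, Kdr, Eng and Aqp1 are shown because these genes differed with diet by the test reported for each and had RefSeq promoter sequence (GRCm38.p6) at hand. The stretch runs from −250 to −71 of the RefSeq start, 5′ to 3′ on the strand of the gene, and ends before any annotated exon. Capitals mark GGAAG, the core bound by ETS factors such as Erg and Fli1, or its reverse complement CTTCC.
Btnl9: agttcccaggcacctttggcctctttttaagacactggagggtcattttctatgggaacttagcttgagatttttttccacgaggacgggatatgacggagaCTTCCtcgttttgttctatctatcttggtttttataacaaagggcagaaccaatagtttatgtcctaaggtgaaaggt
Kdr: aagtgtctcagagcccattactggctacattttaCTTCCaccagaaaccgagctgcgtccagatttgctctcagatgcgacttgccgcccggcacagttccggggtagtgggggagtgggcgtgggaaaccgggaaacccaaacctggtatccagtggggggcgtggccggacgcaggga
Eng: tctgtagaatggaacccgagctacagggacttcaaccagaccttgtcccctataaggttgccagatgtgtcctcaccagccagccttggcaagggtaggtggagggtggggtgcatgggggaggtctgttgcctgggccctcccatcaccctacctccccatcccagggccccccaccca
Aqp1: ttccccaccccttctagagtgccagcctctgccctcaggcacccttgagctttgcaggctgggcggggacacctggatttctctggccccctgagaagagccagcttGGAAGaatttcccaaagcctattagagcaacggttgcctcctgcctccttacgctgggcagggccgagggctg
The windows are chr11:49187160-49187339 (minus strand), chr5:75978526-75978705 (minus strand), chr2:32646345-32646524 (plus strand) and chr6:55336049-55336228 (plus strand). GGAAG, searched on both strands and overlapping no other motif searched, was in 1 place in each of Btnl9, Kdr and Aqp1 and in 0 in Eng. Of 21 such windows for 16 of the 32 genes, 12 (57.1%) held it, against 51.0% of 32851 windows of the same 180 bases over all genes. G and C made up 41.7% of the Btnl9 stretch and 60% to 61.7% of the other 3.

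The first comparison asked how the HFHS diet without drug was reflected in endothelial transcripts. Btnl9, Kdr and Cdh5 rose. Btnl9 was 1.82-fold higher, Kdr 1.38-fold and Cdh5 1.27-fold, and 0 of the 32 genes fell. These were 3 of 32 called by edgeR with Benjamini-Hochberg adjustment over all genes at 0.05, where 2.06% of all genes were called in either direction, 1.45% as higher and 0.619% as lower. In all, 28 of 32 had a log2 fold change above 0 with a median of 0.17, against 49.6% of all genes above 0 and a median of −0.002. The correlation of each gene with the mean of the other members ran from −0.10 (Aplnr) and −0.09 (Kdr) to 0.86 (Esam) and 0.89 (Tie1). Many of the 32 genes thus moved together, and counts above or below 0 are not counts of independent observations. At an unadjusted p under 0.05 stood 18 of the 32 genes and 16.5% of all genes.

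Btnl9, a butyrophilin-like protein of the immunoglobulin superfamily, marks capillary endothelium in mouse tissues. It had 158, 178, 184 and 154 CPM in HFHS untreated hearts, against 78.5, 89.0, 96.4 and 106 CPM in CD untreated hearts. Every HFHS library was above every CD library. The log2 fold change was 0.86 ± 0.10 (SE, edgeR adjusted p = 0.00027).

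Kdr, the main signalling receptor for vascular endothelial growth factor, had 476, 502, 515 and 452 CPM in HFHS untreated hearts, against 373, 339, 344 and 356 CPM in CD untreated hearts. The groups did not overlap, and the lowest HFHS library exceeded the highest CD library by more than the spread within CD. The log2 fold change was 0.46 ± 0.07 (SE, edgeR adjusted p = 0.00386). Flt1, the other receptor for this growth factor, had 257, 229, 264 and 217 CPM in HFHS untreated hearts, against 205, 195, 204 and 239 in CD untreated hearts. Its groups overlapped, and its log2 fold change of 0.20 ± 0.08 did not pass (edgeR adjusted p = 0.251).

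Cdh5, the cadherin of endothelial adherens junctions, had 379, 378, 335 and 325 CPM in HFHS untreated hearts, against 278, 261, 287 and 289 CPM in CD untreated hearts. Again every HFHS library was above every CD library. The log2 difference was 0.35 ± 0.07 (SE; adjusted p = 0.0157 in edgeR). The call of Cdh5 ended without CD untreated replicate 2 (edgeR adjusted p = 0.0568) or HFHS untreated replicate 2 (edgeR adjusted p = 0.0571). Without HFHS untreated replicate 4 the count of called endothelial genes was 5, with the phosphatase Ptprb and the Notch ligand Dll4 added. Over all genes 148 were then called higher and 38 lower, against 229 and 98 with all libraries.

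Groups did not overlap for 8 of the 32 genes, all higher on HFHS, where 4.11% of all genes were higher and 4.22% lower without overlap. Besides Btnl9, Kdr and Cdh5 these were Eng, the apelin receptor Aplnr, the capillary and venous sialomucin Emcn, the junction effector Rasip1 and the ETS factor Erg. Their log2 fold changes of 0.24 ± 0.07, 0.50 ± 0.19, 0.35 ± 0.12, 0.18 ± 0.07 and 0.18 ± 0.06 did not pass over all genes (edgeR adjusted p = 0.0749, 0.205, 0.145, 0.189 and 0.158). Exons of Rasip1 overlap those of Izumo1 over 654 bases, so its reads may be shared, and Eng shares 61 exon bases with Fpgs on the other strand.

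Among the transcription factors, none passed. Sox18 stood at 0.27, Fli1 at 0.19, Erg at 0.18, Sox7 at 0.14, Tal1 at 0.05 and Sox17 at −0.05 on the log2 scale. Among the secreted and enzyme products, none passed. Vwf was at 0.04, Egfl7 at 0.01 and Nos3, the endothelial nitric oxide synthase, at −0.01, while the matrix protein Mmrn2 was at 0.25 (edgeR adjusted p = 0.166). The claudin Cldn5 was at 0.36 ± 0.17 (edgeR adjusted p = 0.291), with 48.9, 50.2, 37.5 and 32.6 CPM in HFHS untreated hearts and 31.3, 27.6, 36.4 and 36.3 CPM in CD untreated hearts. Only replicates 1, 2 and 3 of the HFHS untreated group were above all CD untreated libraries.

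Markers of other heart tissue moved with this comparison. Of 9 valve and cartilage markers, 7 were tested and 7 of 7 had a log2 fold change below 0 (1 passed), with summed levels of 13.8 to 35.5 CPM in HFHS untreated and 42.7 to 227 CPM in CD untreated. Of 8 atrial markers, 7 were tested and 7 were below 0 (0 passed), with sums of 192 to 243 CPM in HFHS untreated and 213 to 1186 CPM in CD untreated. Acan and Col2a1 of the valve list (0 to 29 counts) and Bmp10 of the atrial list (1 to 41 counts) were below the filter. With the scores of these lists as covariates, 0 of 32 genes passed, as did 0 of all genes. Btnl9 was then at 0.73 (edgeR adjusted p = 0.0564), Kdr at 0.29 (edgeR adjusted p = 0.256) and Cdh5 at 0.20 (edgeR adjusted p = 0.474), and 25 of 32 genes were above 0. Without CD untreated replicates 2 and 3 together, which had the highest valve scores, Btnl9 alone passed, while Kdr was at 0.41 (edgeR adjusted p = 0.0591) and Cdh5 at 0.32 (edgeR adjusted p = 0.108). Over all genes 58 were then called higher and 39 lower, against 229 and 98 with all libraries and no covariates.

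**Figure D2:**
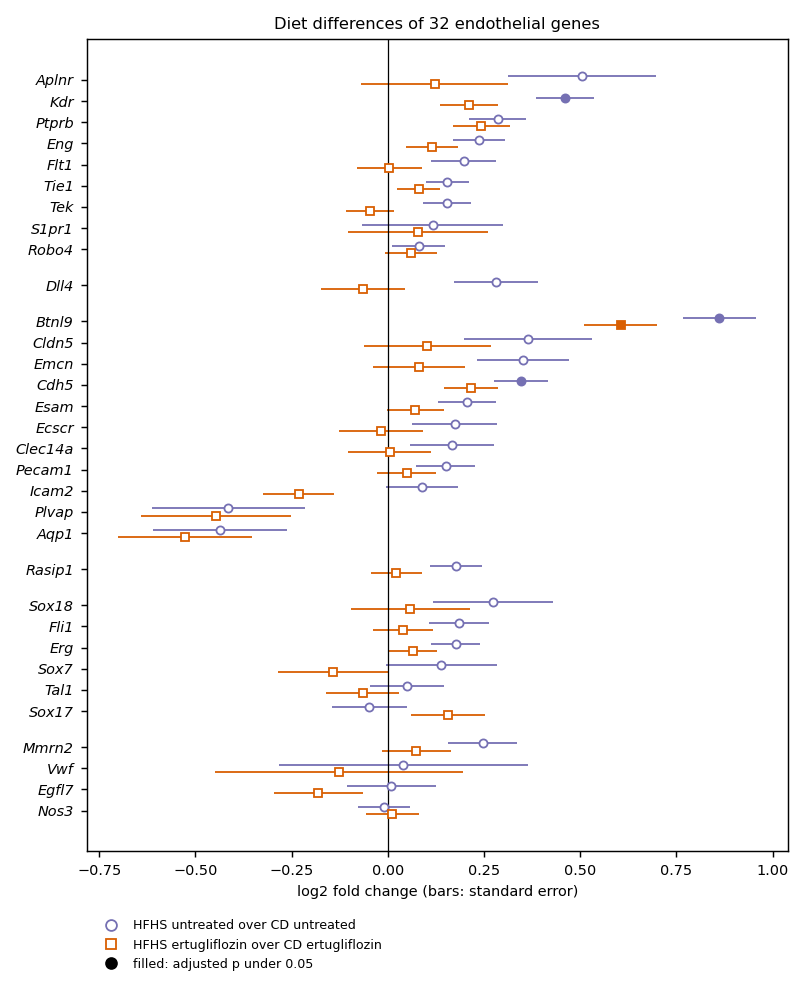
Log2 fold change of each gene for HFHS over CD, without drug (circles) and with ertugliflozin (squares), grouped by role from receptors at the top to secreted and enzyme products at the bottom, with standard errors and filled symbols for edgeR adjusted p under 0.05. Btnl9 lay farthest right in each comparison (0.86 and 0.61), while Aqp1 and Plvap lay left of 0 in each.

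The same diet comparison among ertugliflozin-treated animals set 8 other libraries side by side. Its test came from the same fit of all 16 libraries and shares its estimate of spread with the comparison without drug. Btnl9 rose again and no other endothelial gene passed. It had 159, 157, 183 and 136 CPM in HFHS ertugliflozin hearts, against 114, 104, 99.0 and 99.4 CPM in CD ertugliflozin hearts. The groups did not overlap, and the log2 fold change was 0.61 ± 0.09 (SE, edgeR adjusted p = 0.00165). This was 1 of 32 genes called, where 2.15% of all genes were called as higher, 1.53% as lower and 3.69% in either direction. The median log2 fold change of the 32 genes was 0.05 with 22 above 0, against 48.6% of all genes. Without HFHS ertugliflozin replicate 3 the median was −0.002 with 14 above 0.

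Kdr had 435, 437, 426 and 394 CPM in HFHS ertugliflozin hearts, against 429, 308, 365 and 360 CPM in CD ertugliflozin hearts. CD ertugliflozin replicate 1 lay within the HFHS range and the other 3 lay below it. The log2 fold change was 0.21 ± 0.07 and did not pass (edgeR adjusted p = 0.126). Cdh5 had 348, 337, 363 and 312 CPM in HFHS ertugliflozin hearts, against 336, 268, 278 and 287 in CD ertugliflozin hearts. Its log2 fold change was 0.22 ± 0.07 (edgeR adjusted p = 0.0965), and CD ertugliflozin replicate 1 again lay within the HFHS range. Without that library the count of called endothelial genes was 3, with Kdr at 0.30 and Cdh5 at 0.29 added. The count was 2 without HFHS untreated replicate 1, with Aqp1 added, and 2 without HFHS untreated replicate 4, with Ptprb added. Over all genes these 3 fits called 263, 498 and 317 higher and 189, 346 and 220 lower. With all libraries 341 were higher and 243 lower.

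Groups not overlapping were found for 4 of 32 genes with drug. Btnl9 and Ptprb were higher (6.79% of all genes), and Aqp1 and Icam2 were lower (6.38% of all genes). Icam2, an adhesion molecule of endothelial junctions, had 20.9, 22.9, 23.7 and 21.5 CPM in HFHS ertugliflozin hearts, against 24.5, 27.3, 25.8 and 26.8 CPM in CD ertugliflozin hearts. Its log2 fold change of −0.23 ± 0.09 did not pass (edgeR adjusted p = 0.18), and without drug it stood at 0.09. Valve and atrial markers had summed levels of 14.6 to 57.4 CPM and 189 to 218 CPM in HFHS ertugliflozin, and 11.9 to 64.6 CPM and 189 to 285 CPM in CD ertugliflozin, so these ranges overlapped.

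The mean of the diet effects with and without drug uses all 16 libraries and so has the smallest errors. Btnl9, Kdr, Cdh5, Ptprb and Eng rose on HFHS and Aqp1 fell. These are 6 of 32 genes, against 11.6% of all genes called, 6.59% as higher and 5.01% as lower. Of the 32 genes 25 were above 0, with a median log2 fold change of 0.10, against 47.7% of all genes and a median of −0.008. By role, 3 of 9 receptors rose and 9 of 9 were above 0. Of 11 junction and surface genes 2 rose and 1 fell, and 0 of 6 transcription factors and 0 of 4 secreted and enzyme products passed (13 of the 32 genes and 26.5% of all genes had an unadjusted p under 0.05).

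Btnl9 was at 0.73 ± 0.07 (edgeR adjusted p = 4.23e-06) and was the only one of the 32 whose 8 HFHS libraries (136 to 184 CPM) all lay above the 8 CD libraries (78.5 to 114 CPM), where 0.96% of all genes were higher and 0.802% lower without overlap. Kdr was at 0.34 ± 0.05 (edgeR adjusted p = 0.000468) and Cdh5 at 0.28 ± 0.05 (edgeR adjusted p = 0.00132). Btnl9 (ENSMUSG00000040283) lies on the minus strand of chromosome 11 from 49165585 to 49187159 in GRCm38. Kdr (ENSMUSG00000062960) lies on the minus strand of chromosome 5 from 75932827 to 75978458, and Cdh5 (ENSMUSG00000031871) on the plus strand of chromosome 8 from 104101625 to 104144511.

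Ptprb, the receptor phosphatase VE-PTP that acts on Tek and on the Cdh5 junction complex, had 289, 270, 320 and 275 CPM in HFHS ertugliflozin, 318, 310, 317 and 259 in HFHS untreated, 265, 244, 218 and 248 in CD ertugliflozin, and 264, 248, 227 and 248 in CD untreated. Only HFHS untreated replicate 4 fell within the range of the CD libraries. The mean log2 fold change was 0.26 ± 0.05 (edgeR adjusted p = 0.0031), with nearly the same size without drug (0.29) and with it (0.24). With valve and atrial scores as covariates it was 0.21 and did not pass (edgeR adjusted p = 0.076).

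Eng, a co-receptor for BMP and TGF-beta ligands, had 246, 255, 282 and 246 CPM in HFHS ertugliflozin, 287, 293, 268 and 267 in HFHS untreated, 227, 261, 214 and 249 in CD ertugliflozin, and 217, 228, 246 and 256 in CD untreated. The HFHS untreated libraries were all above 261 CPM, while the HFHS ertugliflozin libraries overlapped with CD. The mean log2 fold change was 0.18 ± 0.05 (edgeR adjusted p = 0.0217). The call ended without HFHS ertugliflozin replicate 3 (edgeR adjusted p = 0.0501), without CD untreated replicates 2 and 3 together (edgeR adjusted p = 0.0606) and with valve and atrial scores as covariates (edgeR adjusted p = 0.178).

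Aqp1, which passes water through endothelial and red cell membranes, had 259, 300.2, 303 and 344 CPM in HFHS ertugliflozin, 458, 277, 344 and 272 in HFHS untreated, 355, 524, 452 and 406 in CD ertugliflozin, and 440, 390, 433 and 564 in CD untreated. With the exception of HFHS untreated replicate 1 at 458 CPM, every HFHS library was below every CD library. The mean log2 fold change was −0.48 ± 0.12 (edgeR adjusted p = 0.0226), and the separate effects were −0.44 without drug and −0.53 with drug, neither past the threshold. The call ended without HFHS ertugliflozin replicate 1 (edgeR adjusted p = 0.0502), with the replicate number as a block (edgeR adjusted p = 0.0557) and with valve and atrial scores as covariates (edgeR adjusted p = 0.133, log2 fold change −0.50).

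Red cells also hold Aqp1, and erythroid markers had summed levels of 247 to 334 CPM in HFHS ertugliflozin, 314 to 488 in HFHS untreated, 315 to 400.0 in CD ertugliflozin and 252 to 426 in CD untreated. Of the 5 such markers tested, 5 had a log2 fold change above 0 for diet without drug and 0 for diet with drug, while Aqp1 was below 0 in each. HFHS untreated replicate 1, the highest for Aqp1 in its group, also had the highest erythroid sum. Their part in the result was not tested.

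Plvap, which builds the diaphragms of fenestrae and caveolae and is sparse in capillaries of the heart muscle, had 6.4, 7.4, 9.9 and 8.7 CPM in HFHS ertugliflozin, 11.5, 6.8, 7.7 and 6.1 in HFHS untreated, 10.3, 13.5, 12.3 and 7.9 in CD ertugliflozin, and 9.8, 12.5, 10.9 and 9.4 in CD untreated. HFHS untreated replicates 2, 3 and 4 and HFHS ertugliflozin replicates 1 and 2 were below all CD libraries, and the other 3 HFHS libraries lay within the CD range. The mean log2 fold change was −0.43 ± 0.14 and did not pass with edgeR (adjusted p = 0.0562). It passed with DESeq2 (adjusted p = 0.0224) and with limma-voom with sample weights (adjusted p = 0.00702). It also passed in edgeR without HFHS untreated replicate 1 (adjusted p = 0.00597), HFHS ertugliflozin replicate 3 (adjusted p = 0.0445) or CD ertugliflozin replicate 4 (adjusted p = 0.023). Endocardium also makes Plvap. Of 4 endocardial markers, all tested, 2 were above 0 for the mean diet effect, and they had summed levels of 71.7 to 91.8 CPM in HFHS ertugliflozin, 63.2 to 82.3 in HFHS untreated, 55.5 to 104 in CD ertugliflozin and 70.9 to 98.3 in CD untreated. Their part in the result was not tested.

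**Figure D3:**
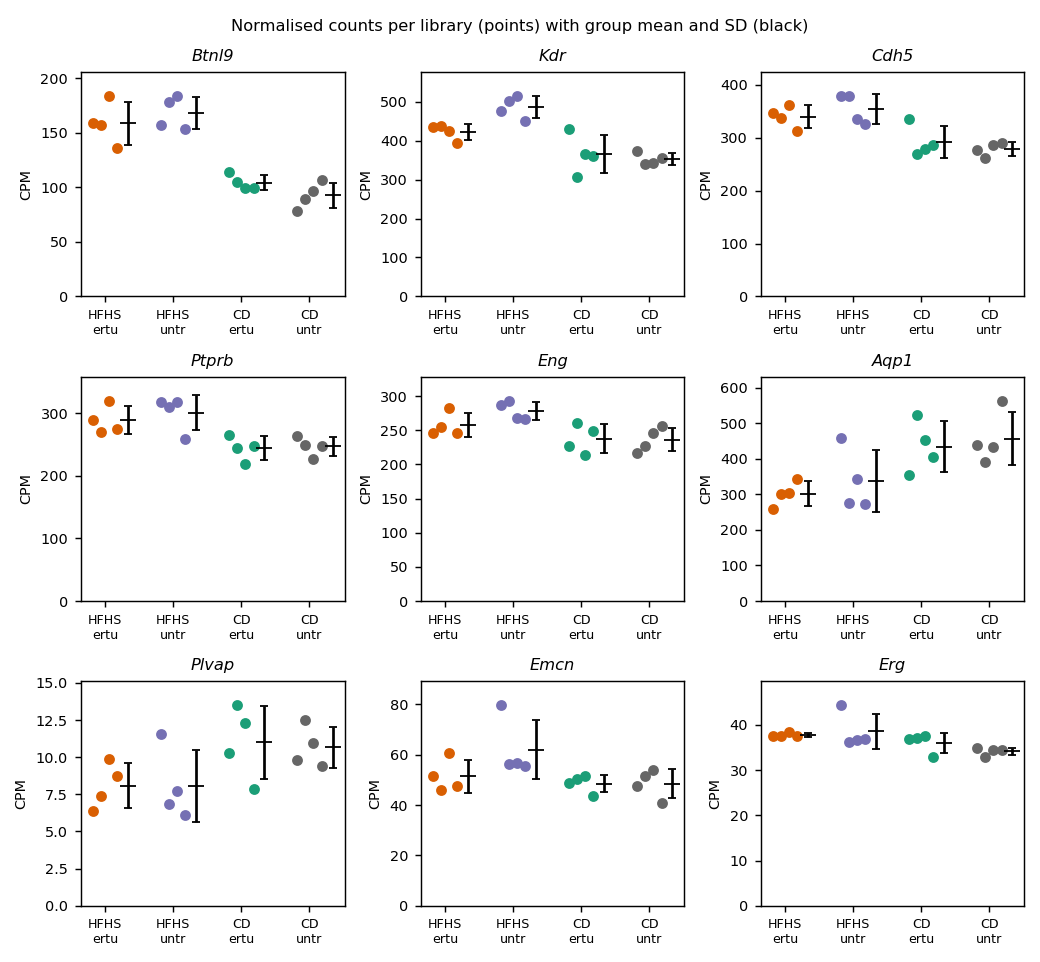
CPM of 9 endothelial genes in every library (points) with the group mean and SD (n = 4), on axes that start at 0. Btnl9 separated all HFHS from all CD libraries, while for Aqp1 1 HFHS library, HFHS untreated replicate 1 at 458 CPM, lay within the CD range.

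Each gene was also set against the other endothelial genes of the same library. The gap of Btnl9 to the median of the other 31 genes (log2, centred over the 16 libraries) was 0.33 ± 0.13 in HFHS ertugliflozin, 0.30 ± 0.18 in HFHS untreated, −0.26 ± 0.09 in CD ertugliflozin and −0.39 ± 0.12 in CD untreated (SD, n = 4 each). All 8 HFHS libraries had a gap above 0 and all 8 CD libraries a gap below 0. The gap of Aqp1 was −0.31 ± 0.18, −0.29 ± 0.26, 0.23 ± 0.22 and 0.35 ± 0.18 in the same order of groups, and that of Plvap was −0.20 ± 0.23, −0.34 ± 0.28, 0.25 ± 0.31 and 0.27 ± 0.22. The gap of Kdr was smaller, 0.07 ± 0.10 in HFHS ertugliflozin, 0.16 ± 0.15 in HFHS untreated, −0.13 ± 0.21 in CD ertugliflozin and −0.13 ± 0.10 in CD untreated, and the ranges of HFHS and CD libraries overlapped for Kdr, Aqp1 and Plvap. These gaps are a description, since the genes were known to differ.

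**Figure D4:**
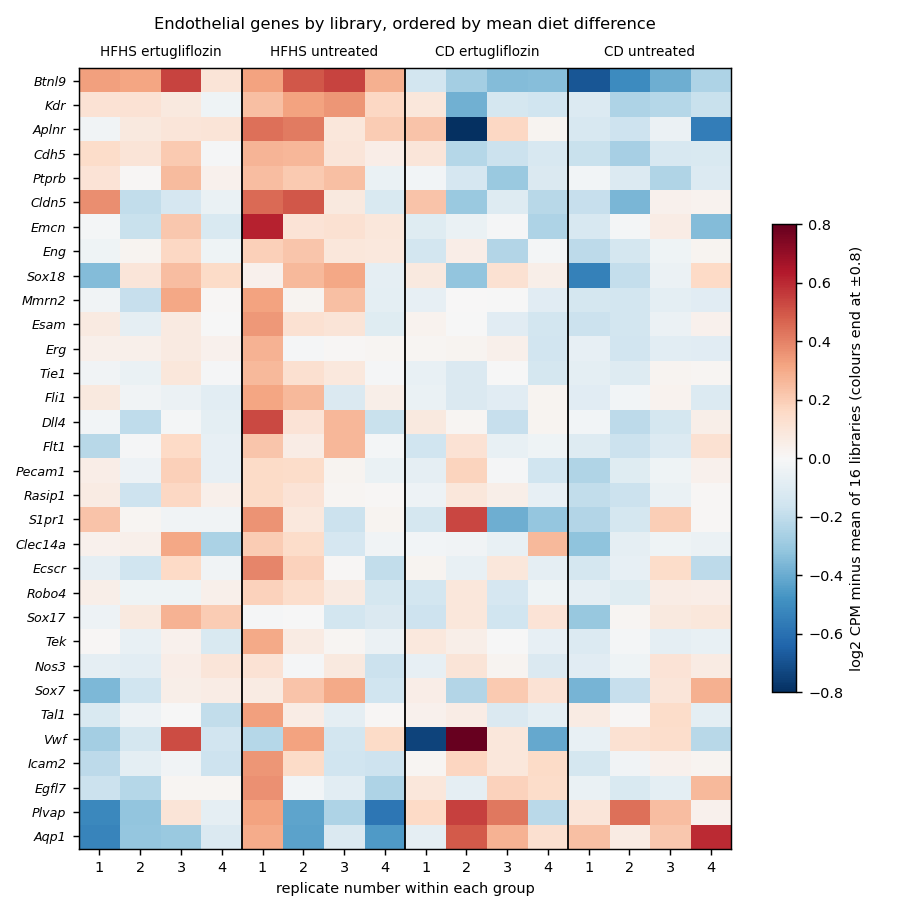
Log2 CPM of each gene minus its mean over the 16 libraries, with genes ordered by mean diet difference from Btnl9 (0.73) at the top to Aqp1 (−0.48) at the bottom and libraries by group. HFHS untreated replicate 1 was above its group mean in 27 of 32 genes, and HFHS untreated replicate 4 in 1 of 32.

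The 32 genes were also summarised per library. The endothelial score, the mean centred log2 CPM over the 32 genes, was 0.26, 0.13, 0.06 and −0.06 in HFHS untreated, against −0.15, −0.10, −0.01 and −0.02 in CD untreated. Only HFHS untreated replicates 1, 2 and 3 exceeded every CD untreated library. With drug the scores were −0.04, −0.06, 0.12 and −0.02 on HFHS, against −0.03, 0.01, −0.03 and −0.07 on CD, and these groups overlapped. Without HFHS untreated replicate 1 the median log2 fold change of the 32 genes without drug was 0.12 with 25 above 0, and 4 passed, with Aqp1 added at −0.62 (edgeR adjusted p = 0.0369). Over all genes 538 were then called higher and 308 lower, against 229 and 98 with all libraries.

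The drug comparisons asked whether ertugliflozin changed endothelial transcripts on either diet. On HFHS none of the 32 genes passed (edgeR, with 4 at an unadjusted p under 0.05), and DESeq2 and limma-voom called 0 as well. Of all genes, 0% were called. Of the 32 endothelial genes, 2 had a log2 fold change above 0 and 30 below, with a median of −0.11, against 50.2% of all genes above 0. Here too the 32 genes are not independent observations, since many moved together between libraries. Without HFHS untreated replicate 1 the median was −0.04, with 8 of 32 above 0, and without HFHS untreated replicate 4 it was −0.16, with 2 above 0. No marker of red cells, macrophages or valves passed in this comparison. Erythroid markers were above 0 in 0 of 5 (median −0.41), with sums of 247 to 334 CPM in HFHS ertugliflozin and 314 to 488 CPM in HFHS untreated. Macrophage markers were above 0 in 1 of 11 (median −0.20), with sums of 283 to 332 CPM in HFHS ertugliflozin and 329 to 365 CPM in HFHS untreated. Valve and cartilage markers were above 0 in 7 of 7 tested (median 0.86), with sums of 14.6 to 57.4 CPM in HFHS ertugliflozin and 13.8 to 35.5 CPM in HFHS untreated. The part of the erythroid and macrophage markers in the result was not tested. With valve and atrial scores as covariates the median of the 32 genes was −0.13, with 1 above 0. HFHS untreated libraries enter both the drug comparison on HFHS and the diet comparison without drug, so the values of these comparisons share those libraries.

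Kdr was the 1 gene of 32 whose groups did not overlap, lower with drug, where 1.54% of all genes were lower and 1.31% higher without overlap. It had 435, 437, 426 and 394 CPM in HFHS ertugliflozin, against 476, 502, 515 and 452 CPM in HFHS untreated. The log2 fold change was −0.20 ± 0.07 (edgeR adjusted p = 0.9999, with an unadjusted p of 0.0143). Dll4, the Notch ligand of arterial and sprouting endothelium, had 36.6, 32.3, 36.7 and 35.1 CPM in HFHS ertugliflozin, against 53.5, 40.0, 44.6 and 32.8 CPM in HFHS untreated. Its log2 fold change of −0.28 ± 0.11 did not pass, and HFHS untreated replicate 4 lay among the treated libraries. Emcn (−0.27 ± 0.12) and Tie1 (−0.12 ± 0.06) were the others under an unadjusted p of 0.05. Btnl9 stood at −0.08 ± 0.09, Cdh5 at −0.06 ± 0.07 and Aqp1 at −0.16 ± 0.17.

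On CD none of the 32 genes passed (edgeR, with 0 at an unadjusted p under 0.05), nor with DESeq2 or limma-voom, and 0.0189% of all genes were called. The median log2 fold change was 0.05 with 24 of 32 above 0, against 51.7% of all genes, and without CD untreated replicate 1 it was 0.01. Valve markers summed to 11.9 to 64.6 CPM in CD ertugliflozin and 42.7 to 227 CPM in CD untreated, and atrial markers to 189 to 285 CPM in CD ertugliflozin and 213 to 1186 CPM in CD untreated. With their scores as covariates the median was −0.01 with 15 above 0. Values ran from −0.07 for Aqp1 to 0.17 for Btnl9, whose SE was 0.10. No gene had groups that did not overlap, where 1.78% of all genes were higher and 1.29% lower without overlap. Vwf had the widest spread, with 68.7, 233, 123 and 86.6 CPM in CD ertugliflozin and 110, 125, 127 and 98.5 CPM in CD untreated.

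**Figure D5:**
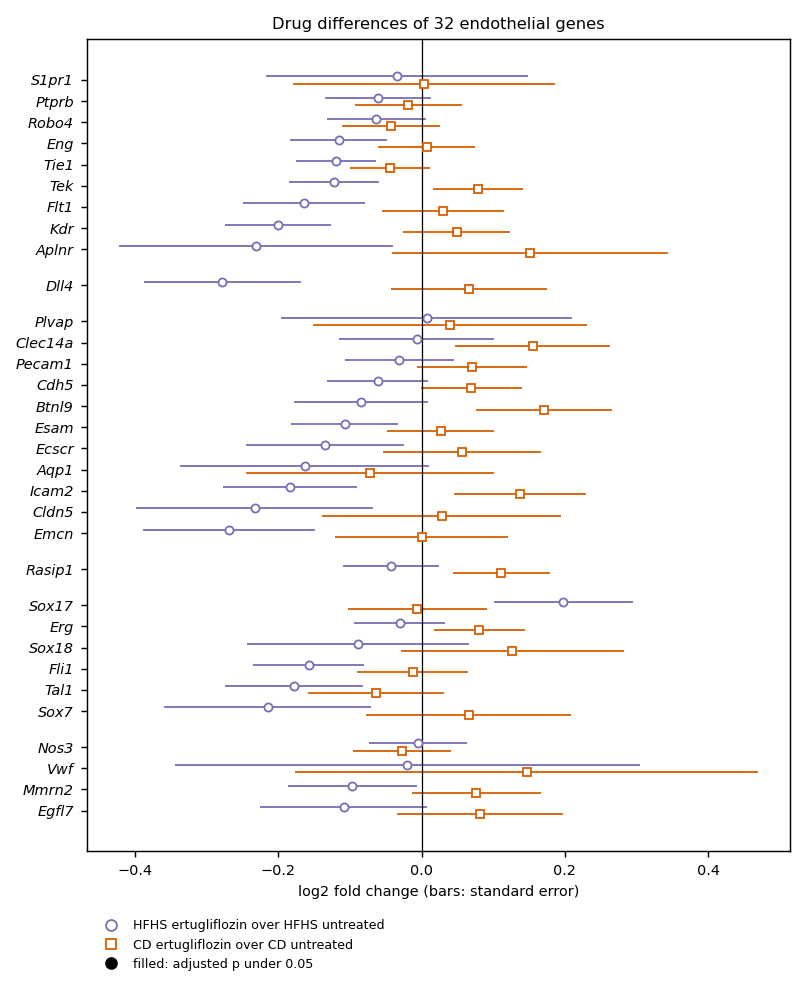
Log2 fold change of each gene for ertugliflozin over no drug, on HFHS (circles) and on CD (squares), with standard errors, grouped by role. No symbol is filled, since no gene passed, and 30 of 32 circles lie left of 0.

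The difference between the drug effects on HFHS and on CD was tested as an interaction. Again none of the 32 genes passed (edgeR, with 4 at an unadjusted p under 0.05), and 0 did with DESeq2 or limma-voom, where edgeR called 0.0189% of all genes and 4.27% had an unadjusted p under 0.05. Of the 32 genes 2 were above 0 and 30 below, with a median of −0.16, against 48.8% of all genes above 0. HFHS untreated replicate 1, above its group mean in 27 of 32 genes, enters this comparison too. So do the CD untreated libraries, with their high valve and atrial sums. The 4 genes at an unadjusted p under 0.05 were Kdr (−0.25 ± 0.11), Tek (−0.20 ± 0.09), Dll4 (−0.34 ± 0.15) and Icam2 (−0.32 ± 0.13). A diet effect of Kdr or Cdh5 that passed without drug and not with drug is therefore not shown to differ between the drug arms. The interaction of Cdh5 was −0.13 and that of Btnl9 −0.26. Averaged over both diets, the drug effect had 0 of 32 genes called (edgeR, 0 at an unadjusted p under 0.05) and values from −0.13 to 0.10, where 0% of all genes were called. DESeq2 and limma-voom also called 0 of the 32.

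Genes that act with the 32 were counted from a list of 25 ligands, receptors and effectors of vascular signalling. Like the lists below, it was chosen with earlier results of these data known. Without drug 1 of 25 rose on HFHS and 0 fell, where 1.45% of all genes were called as higher. Of the 25, 19 were above 0 with a median log2 fold change of 0.09, against 49.6% of all genes above 0. The riser was Nrp1, the co-receptor of Kdr for vascular endothelial growth factor, with 220 ± 12.7 CPM in HFHS untreated and 178 ± 17.4 CPM in CD untreated (SD, n = 4 each), a log2 fold change of 0.31 ± 0.08 (edgeR adjusted p = 0.0402). With drug 0 of 25 passed and Nrp1 was at 0.04. For the mean diet effect 4 of 25 rose and 0 fell, where 6.59% of all genes were called as higher. They were Bmpr2, a receptor for BMP ligands (0.17 ± 0.04), the receptor Notch1 (0.14 ± 0.04), Nrp1 (0.17 ± 0.05) and Nrp2 (0.23 ± 0.07). None of the ligands in the list passed, Vegfa, Vegfb, Angpt2 and Apln among them. For the mean diet effect Slit2 was at 0.46 and Vegfc at 0.23 (edgeR adjusted p = 0.11 and 0.162), against −0.33 for Pgf and −0.29 for Angpt1. Vegfa was at −0.04 without drug and 0.08 with drug, Vegfb at 0.05 and 0.00, Angpt2 at 0.38 and −0.32, and Apln at 0.04 and −0.02.

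A list of 26 other endothelial genes had 6 risen and 0 fallen on HFHS without drug, where 1.45% of all genes were called as higher. Of the 26, 23 were above 0 with a median log2 fold change of 0.14, against 49.6% of all genes above 0. The 6 were Cyyr1 (0.39 ± 0.07), the ETS factors Ets1 (0.34 ± 0.08), Ets2 (0.33 ± 0.08) and Elk3 (0.25 ± 0.06), the adhesion receptor Adgrl4 (0.29 ± 0.07) and the guanine nucleotide exchange factor Arhgef15 (0.24 ± 0.06). Cyyr1, a cysteine- and tyrosine-rich membrane protein, was the 1 of 26 that also passed with drug, where it had 84.6 ± 7.87 CPM in HFHS ertugliflozin and 68.7 ± 3.46 CPM in CD ertugliflozin (SD, n = 4 each, log2 fold change 0.30 ± 0.07, edgeR adjusted p = 0.0152). For the mean diet effect 6 of 26 rose, where 6.59% of all genes were called as higher. Ets1, Ets2 and Elk3 are also made by other cells of the heart.

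Of 6 genes of capillary fatty acid handling, 1 rose in each diet comparison, where 1.45% (without drug) and 2.15% (with drug) of all genes were called as higher. That gene was the fatty acid transporter Cd36, which cardiomyocytes make too, at 0.41 ± 0.06 without drug and 0.37 ± 0.06 with drug (edgeR adjusted p = 0.000936 and 0.000679). Fabp4, the fatty acid binding protein of heart capillaries, was at 0.48 ± 0.17 and 0.18 ± 0.17, the lipase anchor Gpihbp1 at 0.11 and 0.02, and the transcription factors Meox2 and Tcf15 at 0.01 and 0.03 without drug and −0.14 and −0.39 with drug. None of these passed. Fabp5, the other gene of the list, was at 0.18 for the mean diet effect and did not pass (edgeR adjusted p = 0.132). Of the 6 genes 6 were above 0 without drug and 4 with drug, against 49.6% and 48.6% of all genes.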

How the data were processed

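Polyadenylated RNA of ground left ventricle was sequenced as strand-marked libraries, per the labels' protocols. The table deposited by the authors holds raw counts of reads for 53764 Ensembl IDs, and a table of regularized log2 values, likewise deposited, was used here only as an alternative input. STAR 2.6.0c, featureCounts (Subread 1.6.2), FastQC 0.11.7, DESeq2 1.22.1 and build mm10 are named per the submitters' processing notes. Which annotation was counted, on which strand, and how multiply matching reads were handled was not given in sources used here. Without a stated strand setting, overlaps with genes on the other strand (Nos3 with Atg9b, Sox17, Dll4, Ecscr, Eng, Egfl7, Rasip1) leave those counts uncertain, as do overlaps on the same strand of Rasip1 (654 exon bases) and Egfl7 (337, with Gm20532 and Mir126a).

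Symbols and positions came from GENCODE M21 (GRCm38, the same assembly as mm10), which matched 53669 IDs. The main test was edgeR 4.0.16 (R 4.3.3). Low genes were removed by filterByExpr, TMM factors were applied, and 16 libraries were fitted with 1 mean per group by robust quasi-likelihood (glmQLFTest). P-values were adjusted by Benjamini-Hochberg over the 15841 tested genes, with a threshold of 0.05. SE is the size of the log2 fold change over the square root of F. Scores use log2 CPM with a prior count of 2. All 32 genes were described, and other genes were named only if they belonged to a listed set and passed, up to 8 per list, or to show the other members of a list. Ccl21a, with several rows, was left out of its list. Alternatives were other scaling (RLE, upper quartile), filters (none, 1 CPM in 4 libraries), DESeq2 1.42.0, limma 3.58.1 on voom or on the deposited log2 values, a replicate block, fits of only the groups compared, marker scores as covariates and libraries left out. Every limma-voom fit used sample weights. The code was tested on simulated counts. Members, lists and the choice of CD untreated replicates 2 and 3 were made with earlier results of these data known. Each library came from an animal, per the labels, and p-values set group differences against the spread between these samples. The animals were picked as representative, and how this choice affected the spread was not tested.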

Additional observations from a re-analysis of the deposited data

Results flagged for a closer look

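Libraries of a group were compared for each of the 32 genes and the endothelial score, 132 groups of 4 in all. In 10 of them (7.58%) the highest or lowest library stood apart by Dixon's test of its gap to the nearest library, where chance gives about 1 in 20. In HFHS untreated, Ptprb was low in replicate 4 at 258.6 CPM (others 310 to 318), Emcn was high in replicate 1 at 79.6 CPM (others 55.5 to 56.6) and Erg was high in replicate 1 at 44.4 CPM (others 36.3 to 36.9). In HFHS ertugliflozin, S1pr1 was high in replicate 1 at 92.7 CPM (others 77.5 to 80.0), Erg in replicate 3 at 38.4 CPM (others 37.5 to 37.6) and Vwf in replicate 3 at 165 CPM (others 95.4 to 104). In CD ertugliflozin replicate 4, Clec14a was high at 39.2 CPM (others 31.4 to 32.3) and Erg was low at 32.8 CPM (others 37.0 to 37.5). In CD untreated, Clec14a was low in replicate 1 at 26.2 CPM (others 31.2 to 32.1) and Egfl7 was high in replicate 4 at 134 CPM (others 103 to 108). None of the 32 genes passed the interaction test in edgeR.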

How the results depend on the processing

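The count of endothelial genes called for diet without drug (3) was 5 with no filter, with DESeq2 and with limma-voom, 1 without CD untreated replicates 2 and 3 together and 0 with valve and atrial scores as covariates. Over all genes the main fit called 229 higher and 98 lower of 15841. No filter gave 217 and 95 of 30540, DESeq2 391 and 218 of 14052, and limma-voom 484 and 259 of 15841. Without CD untreated replicates 2 and 3 these were 58 and 39, and with the covariates 0 and 0. The endothelial count ran from 2 to 5 when single libraries were left out, where 101 to 538 of all genes were called higher. For diet with drug (1) the endothelial count was 2 with no filter, DESeq2 and limma-voom, and 1 to 3 when single libraries were left out. Over all genes the main fit called 341 higher and 243 lower, no filter 331 and 192, DESeq2 517 and 371, and limma-voom 489 and 371. With single libraries left out, 181 to 498 of all genes were called higher. For the mean diet effect (6) the endothelial count was 3 with the marker scores as covariates, and 5 to 8 when single libraries were left out. Over all genes 482 were called higher and 352 lower with the covariates, against 1044 and 793 in the main fit. With single libraries left out, 817 to 1373 of all genes were called higher. Endothelial counts were 0 for each drug comparison and the interaction under every alternative run. Upper-quartile scaling gave 914 higher and 1021 lower genes for the mean diet effect, against 1044 and 793, and the same 6 endothelial genes. Each called gene kept its sign under all alternatives run. Same-numbered libraries of different groups correlated at −0.24 to 0.31 in their deviations from group means (median 0.06, 6 of 24 pairs over 0.1). Libraries of different number correlated at −0.26 to 0.27 (median −0.02, 12 of 72 pairs over 0.1). These weak correlations cannot settle whether the numbers pair the animals. With the replicate block, 3, 1 and 5 endothelial genes were called for diet without drug, diet with drug and the mean diet effect. Over all genes 227, 329 and 1045 were called higher and 102, 221 and 751 lower. A fit of only the groups compared was not run for the averaged effects and the interaction.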

Other observations

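Endothelial subtypes were described by small marker lists. For the mean diet effect 0 of 9 arterial genes passed, with 6 above 0 and a median log2 fold change of 0.05, against 47.7% of all genes above 0. Of 6 tested lymphatic genes 0 passed and 4 were above 0 (median 0.10), and of 4 endocardial genes 0 passed and 2 were above 0 (median −0.32). This endocardial median lies between opposed values, Npr3 at 0.13 and Nfatc1 at 0.16 against Cytl1 at −1.01 and Hapln1 at −0.77. Hapln1 had only 0 to 30 counts. Of 4 tested venous genes 1 rose (6.59% of all genes) and 2 were above 0 (median 0.16). The riser was Sele, an adhesion molecule of activated endothelium, at 0.63 ± 0.18 (edgeR adjusted p = 0.0296). Selp was at 0.35, Nr2f2 at −0.04 and Vcam1 at −0.04. The level of Sele was low, 1.87 ± 0.75 CPM in HFHS ertugliflozin, 2.08 ± 0.44 in HFHS untreated, 1.41 ± 0.31 in CD ertugliflozin and 1.15 ± 0.08 in CD untreated (SD, n = 4 each).

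Of 12 genes of pericytes and smooth muscle, 3 rose and 0 fell for the mean diet effect, where 6.59% of all genes were called as higher, with 8 above 0 and a median log2 fold change of 0.09. They were the receptor Notch3 at 0.27 ± 0.05, the pericyte protein Vtn at 0.33 ± 0.08 and the platelet-derived growth factor receptor Pdgfrb at 0.18 ± 0.05 (edgeR adjusted p = 0.00222, 0.00835 and 0.0226). Of 11 cardiomyocyte genes 5 fell and 0 rose (median −0.12), where 5.01% of all genes were called as lower, among them Myl3 at −0.19 ± 0.03 and Myl2 at −0.21 ± 0.04. Without drug 0 of 11 cardiomyocyte genes fell (0.619% of all genes) and with drug 5 did (1.53% of all genes). Below 0 were 8 of 11 without drug (median −0.11) and 9 of 11 with drug (median −0.15). In the interaction 0 of 11 passed (0.0189% of all genes), so a difference between the drug arms is not shown. Of 10 fibroblast genes 2 rose for the mean diet effect (6.59% of all genes), Pdgfra at 0.30 ± 0.05 and Ddr2 at 0.20 ± 0.05. CPM values are relative to the TMM-adjusted library size, so vascular and muscle transcripts share 1 scale. A link between their differences was not tested.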
